A study of Mus musculus with 12 samples.

Results

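Platr genes are long noncoding RNA genes that were named as pluripotency-associated transcripts, and Snhg genes, with Gas5, are small nucleolar RNA (snoRNA) host genes. Members were all genes whose GENCODE M21 symbol is Platr or Snhg followed by a number, or Gas5, and which had at least 10 estimated counts in 3 or more libraries. The members were 40 of the 42450 genes listed, 28 Platr genes, 11 Snhg genes and Gas5, and edgeR tested all 40 among 19410 genes. The annotation names 30 Platr and 14 Snhg genes. Platr2, Snhg1, Snhg8 and Snhg10 were not analysed here. Platr23 fell below the minimum, with 0 to 5 counts, and the member nearest to it was Platr19, with 2 to 15 counts and 3 libraries at 10 or more.

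Embryonic stem cells transcribe many long noncoding RNAs, and Platr transcripts are typically found in undifferentiated cells and lost as cells differentiate. A snoRNA host gene is transcribed and spliced, and the snoRNAs, which guide chemical modification of ribosomal RNA, are cut out of its introns. The spliced host RNA that remains is often translated poorly and degraded by nonsense-mediated decay, and many host genes start at a pyrimidine tract like that of ribosomal protein genes.

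PolyA+ RNA was measured in E14tg2a.4, a mouse embryonic stem cell line, after transfection with 50 nM siRNA. Srrm2-KD cells received siRNA to Srrm2, and Gl2-KD cells, the control, received siRNA to the luciferase gene Gl2 of the firefly. Srrm2 encodes a nuclear speckle protein that takes part in splicing. Cells were grown in serum-free ESGRO medium with LIF and collected at 24 h, or transfected again with the same siRNA and collected at 72 h, in 3 experiments, giving 4 groups of 3 libraries. Every group therefore carried a transfected siRNA, all cells were from 1 unmodified line, and no other line was analysed here.

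Totals ranged from 73933196 to 153343831 estimated counts per library. Srrm2 fell in both time points averaged, with a log2 fold change of -1.19 ± 0.10 (SE, edgeR adjusted p = 0.00254). At 24 h and 72 h alone it was at -1.22 ± 0.14 and -1.16 ± 0.14 and, like all other genes, was not called (edgeR adjusted p = 0.0663 and 0.0991). It was lower in every experiment. In experiments 1, 2 and 3 it had 911, 496 and 449 CPM in Gl2-KD and 517, 154 and 200 CPM in Srrm2-KD at 24 h. At 72 h it had 962, 479 and 442 CPM against 461, 182 and 217 CPM. Srrm2-KD in experiment 1 thus stayed near the Gl2-KD level of experiments 2 and 3. The libraries of experiment 1 stood apart from the other 8 on the first principal component, which held 42% of the variance, so the experiment was kept as a block in the fit. The 6 embryonic stem cell markers Pou5f1, Sox2, Nanog, Zfp42, Esrrb and Klf4 together held 3832 to 3899 CPM in Gl2-KD at 24 h, 3635 to 3860 CPM in Srrm2-KD at 24 h, 3383 to 3591 CPM in Gl2-KD at 72 h and 3095 to 3323 CPM in Srrm2-KD at 72 h. The 5 endoderm markers summed to 1.45 to 2.81 CPM in any library, and Sox17 stayed at or below 0.1 CPM. The other lists were summed in the same way: 2.91 to 7.43 CPM for 5 mesoderm and streak markers, 43.8 to 153 CPM for 5 neural markers, 53.1 to 105 CPM for 5 trophoblast markers, of which Tfap2c had 45.6 to 95 CPM, Krt7 1.06 to 18.6 CPM and Cdx2, Elf5 and Hand1 at most 0.451 CPM, and 7.01 to 28.3 CPM for 5 fibroblast markers. In these bulk libraries, fewer cells that express a gene and less of its RNA per cell cannot be told apart.

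The start regions of a few members are shown so that the starts of host genes and Platr genes can be read side by side with their levels. Each line gives 40 bases before and 40 bases from the RefSeq start (GRCm38.p6), on the strand of the gene. Capitals mark TATATA or TATAAA lying wholly in the bases from 40 up to, but not including, 20 before the start. They also mark an unbroken run of at least 5 pyrimidines that begins with C within 10 bases of the start. The TATAAA of Snhg5 begins in the stretch searched but runs past its end, so it is not marked.

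Gas5: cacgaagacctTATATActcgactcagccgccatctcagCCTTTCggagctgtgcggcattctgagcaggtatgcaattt
Snhg12: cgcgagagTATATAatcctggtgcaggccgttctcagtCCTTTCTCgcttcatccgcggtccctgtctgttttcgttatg
Snhg5: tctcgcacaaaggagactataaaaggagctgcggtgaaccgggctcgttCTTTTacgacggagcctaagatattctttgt
Snhg3: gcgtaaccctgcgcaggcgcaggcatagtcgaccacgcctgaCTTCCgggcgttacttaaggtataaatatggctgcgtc
Platr7: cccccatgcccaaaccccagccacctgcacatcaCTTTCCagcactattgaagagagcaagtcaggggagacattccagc
Platr9: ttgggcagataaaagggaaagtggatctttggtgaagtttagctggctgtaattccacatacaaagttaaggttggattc
Platr10: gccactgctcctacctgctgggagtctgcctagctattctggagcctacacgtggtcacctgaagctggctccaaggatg
Platr14: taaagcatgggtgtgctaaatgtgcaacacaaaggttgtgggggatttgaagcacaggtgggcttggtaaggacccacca

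The windows lie at chr1:161035126-161035205 (plus strand) for Gas5, chr4:132308638-132308717 (plus) for Snhg12, chr9:88522858-88522937 (minus) for Snhg5, chr4:132353647-132353726 (minus) for Snhg3, chr10:84553299-84553378 (minus) for Platr7, chr4:34911442-34911521 (minus) for Platr9, chr3:75655692-75655771 (minus) for Platr10 and chr2:104559419-104559498 (plus) for Platr14. RefSeq gave 13 windows for 11 of the 12 Snhg and Gas5 genes and 15 windows for 13 of the 28 Platr genes. Of the Snhg and Gas5 windows, 46.2% held such a pyrimidine run, and 15.4% (Gas5 and Snhg12) held TATATA and the run. Every host window shown above holds the run, while those of Snhg11, Snhg14, Snhg15, Snhg17 and Snhg20 do not. Gas5 has another RefSeq window, not shown, with neither motif. Of the Platr windows, 26.7% held the run and 0 held TATATA or TATAAA. Over all 32851 windows, 29.7% held the run and 2.55% held TATATA or TATAAA. These shares count only motifs that lie wholly in the stretch searched, so the TATAAA of Snhg5 is left out. The first of these motifs is its own reverse complement, and the other and the pyrimidine run were searched on the strand of the gene only. Snhg6 and the other Platr genes, among them Platr4, Platr13, Platr15, Platr16, Platr17 and Platr27, were without an entry.

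The Platr genes were dispersed over the genome. They lay on 13 chromosomes, 7 of them on chromosome 2, had a median of 1314 exonic bases, and 17 of 28 had 1 annotated transcript. None of the 28 held an annotated snoRNA gene on its strand, whereas 11 of the 12 Snhg genes and Gas5 did, Gas5 with 10 and Snhg14, the long transcript of the imprinted Snrpn region, with 208. The exception was Snhg20, which overlaps a small Cajal body RNA gene. Snhg and Gas5 genes had a median of 5.5 transcripts. The annotation types 2 Platr genes (Platr17 and Platr25) and Snhg11 as protein coding, Platr32 as sense intronic and Platr31 and Snhg9 as antisense.

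Levels were compared between genes as CPM (counts scaled to a common library size) per kb of exon, averaged over the 12 libraries. Exon length joins the exons of all annotated transcripts of a gene. It was 3760 of 4118 spanned bases for Gas5 and 1745 of 8286 for Platr10, so the order of genes depends on this divisor. The median was 2.98 CPM per kb for Platr genes, with a range of 0.0439 for Platr19 to 101 for Platr10, and 22.7 CPM per kb for Snhg and Gas5, with a range of 0.954 for Snhg18 to 87.3 for Gas5. On this scale Platr10 and Platr14, at 75.6 CPM per kb, stood near Gas5, and the other Platr genes were at 31.9 CPM per kb or lower. In CPM without the length, Gas5 averaged 328, Platr10 176 and Platr14 119. Per library, 6 of 28 Platr genes averaged below 1 CPM and 8 averaged at least 10 CPM, against 1 and 10 of the 12 Snhg and Gas5 genes.

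**Figure D1:**
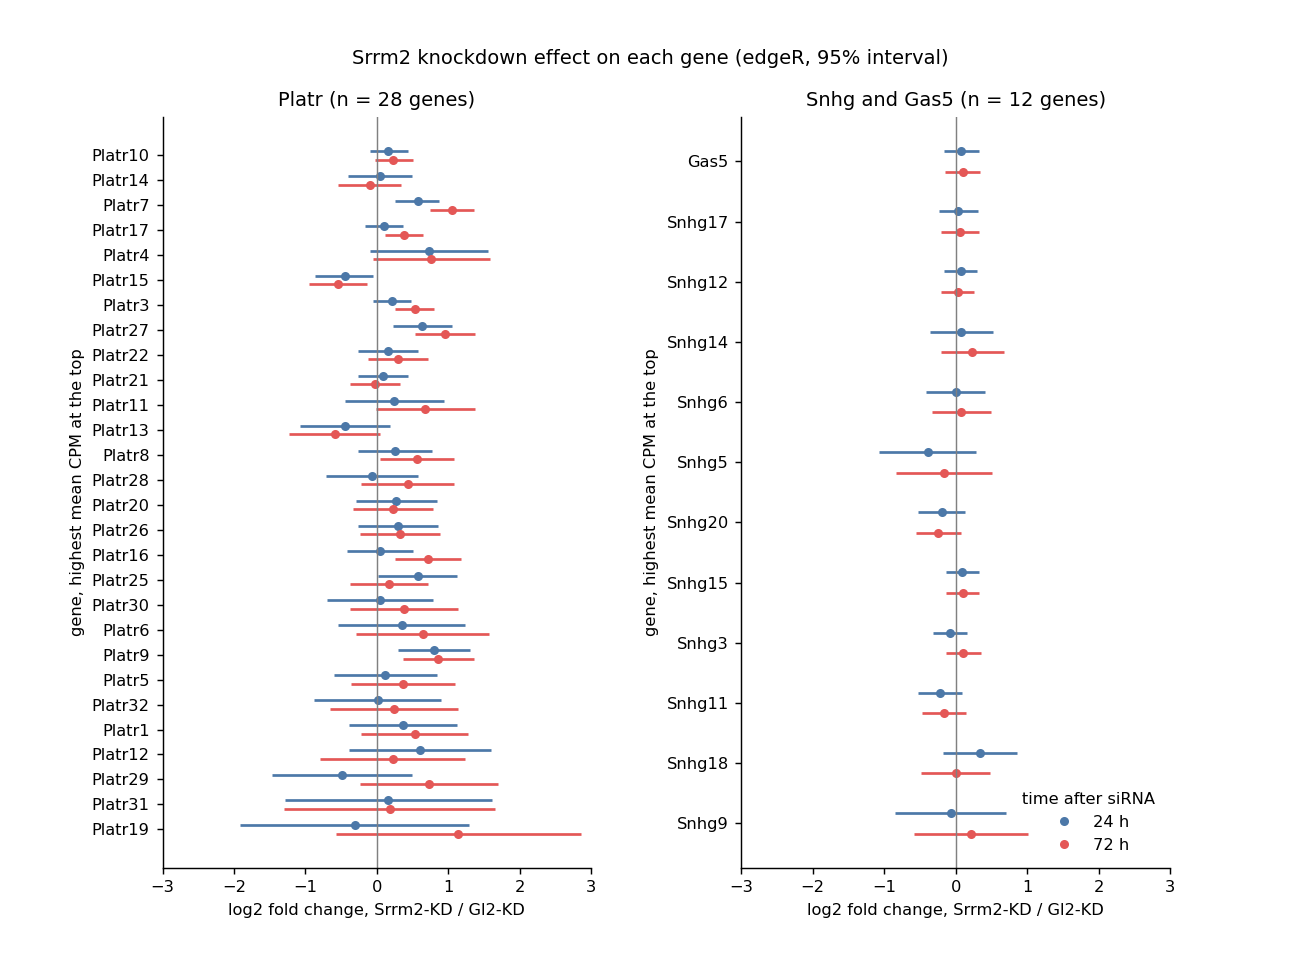
Log2 fold change of Srrm2-KD against Gl2-KD for each member, at 24 h (blue) and 72 h (red), with 95% intervals from the edgeR fit of all 12 libraries (3 per group), ordered by mean CPM. Most Platr points lie to the right of 0, with Platr7 at 1.05 at 72 h, and the Snhg and Gas5 points lie within 0.39 of 0.

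Among Platr genes, Platr7, on chromosome 10 from 84547417 to 84553338 (minus strand), rose in Srrm2-KD over both time points, and it was the only member that passed the test. In Gl2-KD at 24 h it had 37.5, 20 and 14.2 CPM in experiments 1, 2 and 3, and in Srrm2-KD at 24 h 41.9, 29.9 and 27.7 CPM. At 72 h it had 24.8, 13.6 and 11.4 CPM in Gl2-KD and 44.2, 31.6 and 24.6 CPM in Srrm2-KD. Experiment 1 was highest in every group, so the groups overlapped at both times, while Srrm2-KD was higher than Gl2-KD within each experiment at both times, in 6 of 6 pairs. Of the 19410 genes tested, 1358 were higher and 1408 lower in all 6 pairs. The means were 23.9 ± 12.1 and 33.1 ± 7.66 CPM at 24 h and 16.6 ± 7.20 and 33.5 ± 9.92 CPM at 72 h (SD, n = 3), behind which stood 1496 to 7099 counts per library.

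The log2 fold change of Platr7 was 0.57 ± 0.14 at 24 h (SE, edgeR adjusted p = 1) and 1.05 ± 0.14 at 72 h (edgeR adjusted p = 0.112), and neither time passed the test alone. Averaged over both, it was 0.81 ± 0.10 (95% interval 0.59 to 1.03, edgeR adjusted p = 0.0272). It was 1 of 28 Platr genes called, and 0.0670% of all genes tested were called in that comparison. DESeq2 (adjusted p = 6.17e-10) and limma-voom (0.0116) called it too, and without the experiment as a block it was not called (log2 fold change 0.74, edgeR adjusted p = 1). With 1 library left out it stayed called in 4 of 12 fits, and the call was lost without the Gl2-KD 24 h, Gl2-KD 72 h, Srrm2-KD 24 h or Srrm2-KD 72 h library of experiment 2 (edgeR adjusted p = 0.117, 0.116, 0.0827 and 0.107) or of experiment 3 (0.122, 0.0724, 0.053 and 0.0709). Without experiment 1 it was called (log2 fold change 0.97, edgeR adjusted p = 0.0141), and without experiment 2 or 3 it was not (0.881 and 0.261).

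Platr27 and Platr9 followed Platr7 in the order of p. Platr27, on chromosome 2 from 157595583 to 157597320 (minus strand), had 6.70, 9.34 and 8.91 CPM in Gl2-KD and 7.32, 15.5 and 17.5 CPM in Srrm2-KD at 24 h. At 72 h it had 6.90, 8.80 and 7.64 CPM against 10.2, 19.3 and 17.6 CPM, and these groups did not overlap. The smallest difference in each pair of groups was that of experiment 1. The log2 fold changes were 0.63 ± 0.19 at 24 h, 0.96 ± 0.19 at 72 h and 0.79 ± 0.13 over both (edgeR adjusted p = 1, 0.124 and 0.0545), so that Platr27 was not called. DESeq2 (adjusted p = 4.81e-06) and limma-voom (adjusted p = 0.0314) did call it over both times. In that comparison DESeq2 called 4.68% of the genes with an adjusted p, and limma-voom 0.474% of all genes.

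Platr9, on chromosome 4 from 34906124 to 34911481 (minus strand), was low but its groups did not overlap at either time. It was the only such Platr gene at 24 h, where 1.89% of all genes lay higher without overlap. It had 0.983, 0.642 and 0.812 CPM in Gl2-KD and 1.47, 1.25 and 1.49 CPM in Srrm2-KD at 24 h. At 72 h it had 1.17, 0.72 and 0.997 CPM against 1.62, 1.61 and 1.94 CPM. The log2 fold changes were 0.80 ± 0.23 and 0.86 ± 0.23, and 0.83 ± 0.16 over both (edgeR adjusted p = 1, 0.18 and 0.0752). DESeq2 called it at 72 h and over both times (adjusted p = 0.0189 and 0.000259), and limma-voom did not (0.143 and 0.0519). Of its 2376 exonic bases, 305 lie opposite to Cga, which encodes the alpha subunit of glycoprotein hormones and was at 0.282 CPM or lower in every library.

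**Figure D2:**
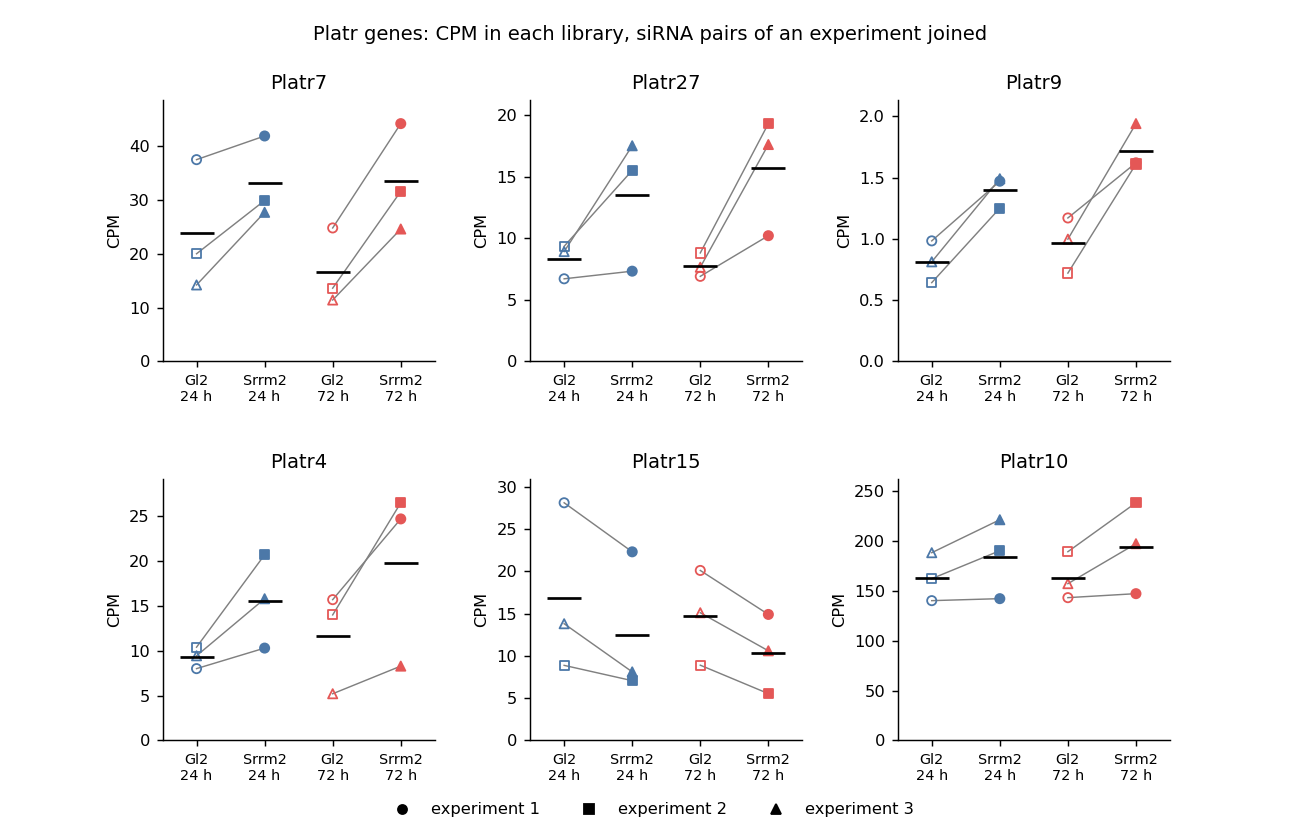
CPM of 6 Platr genes in each library, with Gl2-KD open and Srrm2-KD filled, 24 h in blue and 72 h in red, marker shape for the experiment, grey lines joining the pair of an experiment and black bars for the group mean. Platr7, Platr27, Platr9, Platr4 and Platr10 were higher in Srrm2-KD in all 6 pairs and Platr15 was lower in all 6, as were 1358 and 1408 of the 19410 genes tested.

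The remaining abundant Platr genes gave smaller or less even differences. Platr10 was the most abundant, with 140, 162 and 188 CPM in Gl2-KD and 142, 190 and 221 CPM in Srrm2-KD at 24 h, and 143, 189 and 157 CPM against 147, 238 and 197 CPM at 72 h. Its log2 fold change over both times was 0.20 ± 0.09 (edgeR adjusted p = 0.346), the groups overlapped, and experiment 1 differed least. Platr4 had 8.01, 10.4 and 9.44 CPM in Gl2-KD and 10.3, 20.7 and 15.8 CPM in Srrm2-KD at 24 h. At 72 h it had 15.7, 14.0 and 5.21 CPM against 24.7, 26.5 and 8.29 CPM. Experiment 3 thus lay lowest at 72 h for both siRNAs, and the log2 fold change over both was 0.74 ± 0.26 (edgeR adjusted p = 0.25).

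Platr15 went the other way. It had 28.1, 8.88 and 13.8 CPM in Gl2-KD and 22.3, 7.07 and 8.11 CPM in Srrm2-KD at 24 h, and 20.1, 8.90 and 15.1 CPM against 14.9, 5.54 and 10.6 CPM at 72 h. It was lower in Srrm2-KD in 6 of 6 pairs, with overlapping groups and a log2 fold change of -0.50 ± 0.13 over both times (edgeR adjusted p = 0.146). Platr13, chosen after its values were seen, had a log2 fold change of -0.52 ± 0.20 and was also lower in all 6 pairs (edgeR adjusted p = 0.297).

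Platr17, which RefSeq lists as a gene for a small membrane protein, had 21.9, 34.3 and 25.2 CPM in Gl2-KD and 23.4, 35.7 and 28.0 CPM in Srrm2-KD at 24 h. At 72 h it had 20.2, 21.4 and 18.3 CPM against 21.8, 32.9 and 24.8 CPM, groups that did not overlap. The log2 fold change was 0.10 ± 0.12 at 24 h and 0.38 ± 0.12 at 72 h (edgeR adjusted p = 1 and 0.241). Platr14 had 87.4, 76.8 and 137 CPM in Gl2-KD and 81.9, 84.2 and 146 CPM in Srrm2-KD at 24 h, and 129, 164 and 130 CPM against 114, 148 and 134 CPM at 72 h, so that it was higher in Srrm2-KD in 3 of 6 pairs only.

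As a family, the Platr genes lay above 0 in the knockdown comparisons more often than all genes did. At 24 h, 23 of 28 had a log2 fold change above 0, with a median of 0.16, against 51.3% and a median of 0.01 over all genes. At 72 h it was 24 of 28 with a median of 0.38, against 47.9% and a median of -0.02. Over both times it was 25 of 28, with a median of 0.28, against 49.3% of all genes, whose median was within 0.01 of 0. Within experiments, 15 Platr genes were higher in all 3 pairs at 24 h (17.3% of all genes) and 18 at 72 h (18.8%). In all 6 pairs of both times, 12 Platr genes were higher and 2 lower, against 1358 and 1408 of the 19410 genes tested.

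Few of these differences passed a test with the experiment alone as the block. No Platr gene was called at 24 h or 72 h by edgeR, where 0% of all genes were called in each, and DESeq2 and limma-voom called 0 at 24 h. At an unadjusted p below 0.05, 4 Platr genes were higher and 1 lower at 24 h (1.15% and 1.47% of all genes), 7 higher and 1 lower at 72 h (5.01% and 7.86%), and 9 higher and 2 lower over both (5.72% and 7.85%). DESeq2 called 5 Platr genes at 72 h, all higher (3.26% of the genes with an adjusted p), and limma-voom called 1 (0.0206%). The groups did not overlap at 72 h for 5 Platr genes, all higher, against 2.99% of all genes higher and 3.67% lower. Beside Platr27, Platr9 and Platr17, these were Platr3 and Platr29, chosen after their values were seen, with log2 fold changes of 0.53 ± 0.13 and 0.73 ± 0.44 (edgeR adjusted p = 0.153 and 0.522).

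The knockdown effect was not shown to differ between the times for any Platr gene. The difference of effects, 72 h minus 24 h, had a median of 0.19 over the 28 genes against -0.02 over all genes, and 0 Platr genes were called by edgeR, DESeq2 or limma-voom, as were 0% of all genes by edgeR. The difference for Platr7 was 0.49 ± 0.20 on the log2 scale (edgeR adjusted p = 1). At an unadjusted p below 0.05, 2 Platr genes had a larger effect at 72 h, Platr7 and Platr16, and 0.665% of all genes did. Platr16 shares 290 of its 665 exonic bases with the pseudogene Gm13230 on the same strand, so its level is uncertain.

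**Figure D3:**
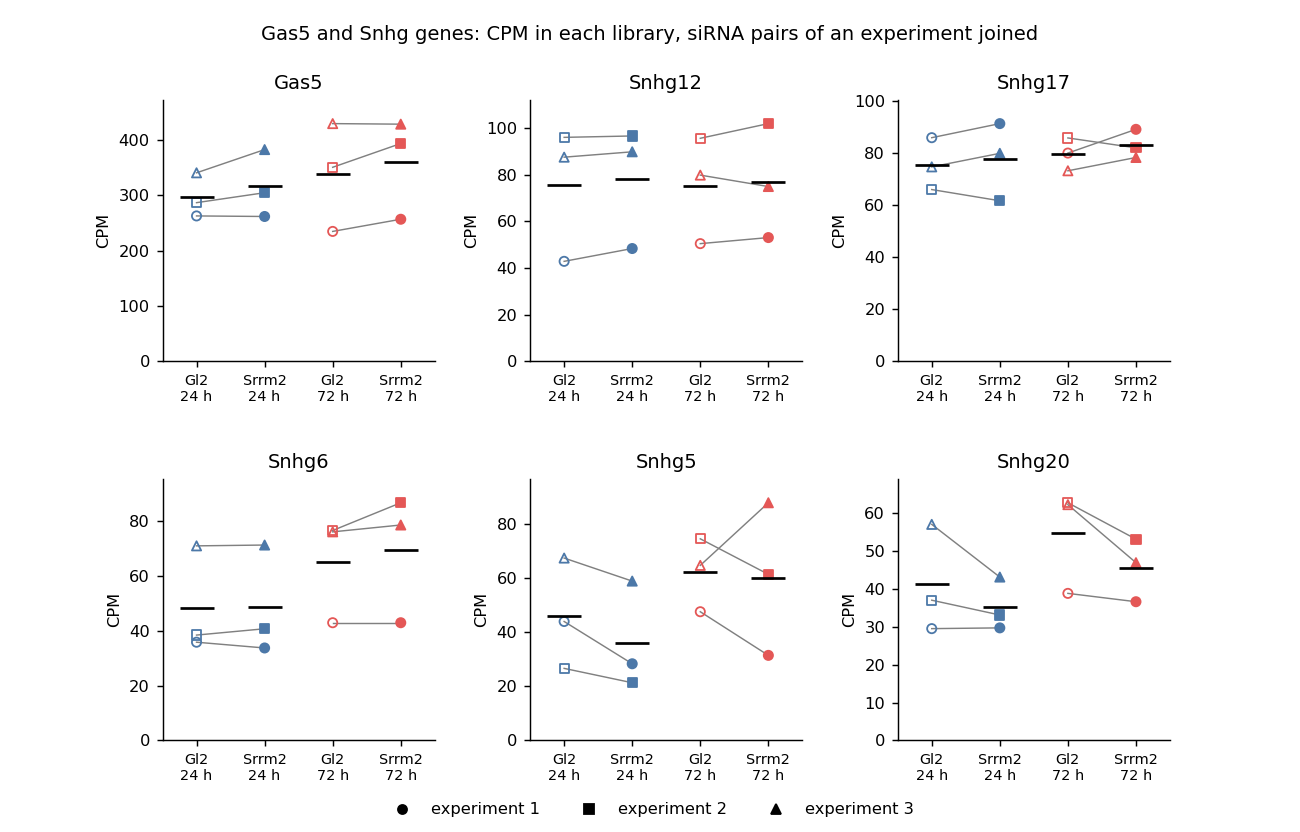
CPM of Gas5 and the Snhg genes Snhg12, Snhg17, Snhg6, Snhg5 and Snhg20 in each library, with Gl2-KD open and Srrm2-KD filled, 24 h in blue and 72 h in red, marker shape for the experiment, grey lines joining the pair of an experiment and black bars for the group mean. The siRNA groups overlap for all 6 genes, and experiment 1 lies low for Gas5 and Snhg12.

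None of the 12 Snhg and Gas5 genes passed the test in the knockdown comparisons. Their log2 fold changes over both times lay between -0.28 for Snhg5 and 0.17 for Snhg18. The median was 0.05, with 9 of 12 above 0 (49.3% of all genes). No gene was called at 24 h, at 72 h or over both times by edgeR, DESeq2 or limma-voom. At an unadjusted edgeR p below 0.05 there were 0, against 1.15% higher and 1.47% lower of all genes at 24 h. These shares were 5.01% and 7.86% at 72 h and 5.72% and 7.85% over both. No pair of groups was free of overlap, against 2.99% higher and 3.67% lower of all genes at 72 h. With 12 genes, counts of 0 are near these shares.

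Gas5, which hosts box C/D snoRNAs and is known as a growth-arrest transcript, was the most abundant member in CPM. It had 263, 287 and 341 CPM in Gl2-KD and 262, 305 and 383 CPM in Srrm2-KD at 24 h, and 235, 351 and 430 CPM against 257, 394 and 429 CPM at 72 h. The order of the experiments was kept in all 4 groups, with experiment 1 lowest and experiment 3 highest. The log2 fold change over both times was 0.09 ± 0.08 (95% interval -0.08 to 0.26, edgeR adjusted p = 0.667), an interval that lies below that of Platr7.

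Snhg12 and Snhg17, hosts of several snoRNAs each, also differed little between the siRNAs. Snhg12 had 42.9, 96.1 and 87.6 CPM in Gl2-KD and 48.4, 96.7 and 89.9 CPM in Srrm2-KD at 24 h, and 50.5, 95.7 and 79.9 CPM against 53.1, 102 and 75.0 CPM at 72 h. Snhg17 had 85.8, 65.9 and 74.6 CPM against 91.2, 61.6 and 79.8 CPM at 24 h, and 79.9, 85.7 and 73.1 CPM against 89.0, 81.9 and 78.2 CPM at 72 h. The log2 fold changes over both times were 0.05 ± 0.07 for Snhg12 (95% interval -0.11 to 0.21) and 0.05 ± 0.09 for Snhg17 (-0.14 to 0.24).

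Snhg5 and Snhg20 had the lowest fold changes of the family. Snhg5 had 43.9, 26.6 and 67.3 CPM in Gl2-KD and 28.3, 21.3 and 58.8 CPM in Srrm2-KD at 24 h, and 47.5, 74.4 and 64.6 CPM against 31.4, 61.3 and 87.7 CPM at 72 h. It was lower in Srrm2-KD in 5 of 6 pairs, with a log2 fold change of -0.28 ± 0.22 (95% interval -0.75 to 0.20, edgeR adjusted p = 0.622). That value ranged from -0.46 without experiment 3 to -0.09 without the Gl2-KD 72 h library of experiment 2. Snhg20 had 29.5, 37.0 and 57.0 CPM against 29.7, 33.1 and 43.1 CPM at 24 h, and 38.8, 62.7 and 62.2 CPM against 36.6, 53.1 and 46.9 CPM at 72 h. The log2 fold change was -0.22 ± 0.10 (95% interval -0.44 to 0.01, edgeR adjusted p = 0.395), again lower in 5 of 6 pairs.

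Snhg11 and Snhg18 were named for the smallest p at 24 h. Snhg11, which is known for expression in neurons, had 29.8, 13.7 and 16.4 CPM in Gl2-KD and 23.6, 12.7 and 14.3 CPM in Srrm2-KD at 24 h, and 22.9, 15.2 and 17.1 CPM against 21.7, 11 and 17.8 CPM at 72 h. Its log2 fold change over both was -0.19 ± 0.10 (edgeR adjusted p = 0.44). Snhg18 had 0.686, 0.948 and 1.75 CPM against 0.936, 1.30 and 1.88 CPM at 24 h, and 0.807, 1.58 and 2.34 CPM against 0.722, 1.77 and 2.29 CPM at 72 h. It was higher in all 3 pairs at 24 h (log2 fold change 0.34 ± 0.24, edgeR adjusted p = 1) and in 1 of 3 at 72 h.

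Snhg14 spans 667836 bases of chromosome 7 and runs opposite to Ube3a, a ubiquitin ligase gene, with 1803 shared exonic bases. Snhg14 had 82.3, 49.0 and 72.2 CPM in Gl2-KD and 67.6, 54.5 and 91.0 CPM in Srrm2-KD at 24 h, and 73.7, 55.6 and 46.7 CPM against 67.2, 72.0 and 65.3 CPM at 72 h. The groups overlapped, and the log2 fold change over both was 0.16 ± 0.14 (edgeR adjusted p = 0.677). Ube3a had 15.4 to 46.8 CPM in the 4 libraries of experiment 1 and 0 to 1.04 CPM in the other 8, a split that Snhg14 did not share. The library kit marks strand, but whether the counting used it is not stated, so that reads of this pair may not be told apart.

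In Gl2-KD, 72 h against 24 h, no member was called by edgeR, while 1.45% of all genes were, and the families leaned to opposite sides. Of the Platr genes, 10 of 28 lay above 0 (52.3% of all genes), with a median log2 fold change of -0.12, and 10 were lower at 72 h in every experiment, against 16.2% of all genes. Of the Snhg and Gas5 genes, 8 of 12 lay above 0, with a median of 0.12, and 4 were higher in every experiment, against 20.2% of all genes. The median over all genes was 0.02. At an unadjusted edgeR p below 0.05, 1 Platr gene was higher and 4 were lower, and 3 Snhg genes were higher and 0 lower, against 9.59% higher and 7.21% lower of all genes. DESeq2 called 2 Platr genes, Platr7 and Platr17, both lower (7.41% of the genes with an adjusted p), and limma-voom 0. Whether the families differed was not tested.

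Single members gave the following values in that comparison. Platr7 was lower at 72 h in all 3 experiments (log2 fold change -0.50 ± 0.14, edgeR adjusted p = 0.104), and so was Platr17 (-0.42 ± 0.12, edgeR adjusted p = 0.112), whose groups did not overlap (3.36% of all genes were lower without overlap). These use the same Gl2-KD libraries at 72 h as the knockdown comparison at that time. Platr14 was higher at 72 h in 2 of 3 experiments (0.53 ± 0.20, edgeR adjusted p = 0.212), and experiment 3 went from 137 to 130 CPM.

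Of the host genes, Snhg6 had 35.8, 38.4 and 70.9 CPM at 24 h and 42.9, 76.5 and 76.0 CPM at 72 h in Gl2-KD, and 33.7, 40.7 and 71.2 CPM against 42.9, 86.6 and 78.5 CPM in Srrm2-KD. It was higher at 72 h in every experiment for both siRNAs, most in experiment 2, with log2 fold changes of 0.44 ± 0.19 and 0.53 ± 0.19 (edgeR adjusted p = 0.265 and 0.202). Snhg20 and Snhg15 were likewise higher in 3 of 3 experiments for both siRNAs, by 0.42 ± 0.15 and 0.37 ± 0.15 for Snhg20 (edgeR adjusted p = 0.176 and 0.24) and by 0.24 ± 0.10 for Snhg15 with each siRNA (0.279 and 0.277). Gas5 was at 0.15 ± 0.11 and 0.17 ± 0.11 and went down from 24 h to 72 h in experiment 1 with both siRNAs.

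In Srrm2-KD, 72 h against 24 h, no member was called either, against 0.551% of all genes. The median log2 fold change was 0.08 for Platr genes, 15 of 28 above 0, and 0.14 for Snhg and Gas5 genes, 9 of 12 above 0, while 50.1% of all genes lay above 0. Snhg5 had the highest fold change of the host genes, 0.76 ± 0.31 (edgeR adjusted p = 0.259), higher in 3 of 3 experiments. Platr7 was at -0.01 ± 0.14. At an unadjusted edgeR p below 0.05, 0 Platr genes were higher and 1 was lower, and 4 Snhg genes were higher and 0 lower, against 7.72% higher and 8.54% lower of all genes, and DESeq2 and limma-voom called no member.

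**Figure D4:**
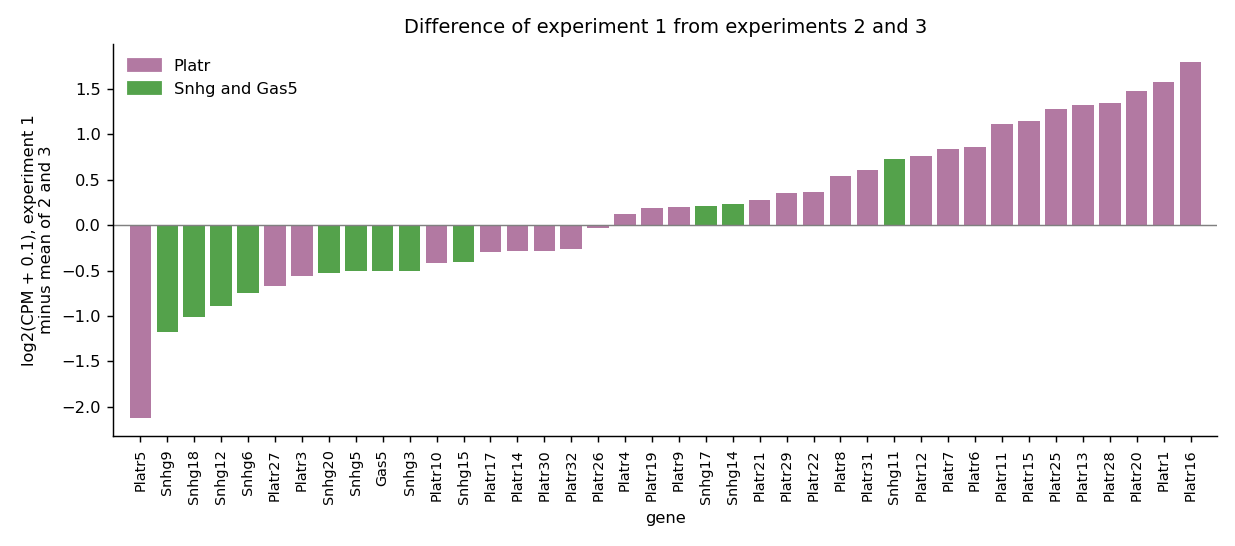
Mean log2(CPM + 0.1) of experiment 1 minus the mean of experiments 2 and 3 for each member, Platr genes in purple and Snhg and Gas5 genes in green, ordered by the difference. The bars run from -2.13 for Platr5 to 1.80 for Platr16, and 9 of the 12 green bars lie below 0.

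Levels of many members differed between the experiments. In experiment 1, 8 of the 12 Snhg and Gas5 genes were the lowest of the 3 experiments in all 4 groups, against 20.2% of all genes tested, with a median difference from experiments 2 and 3 of -0.51 on the log2(CPM + 0.1) scale. Of the Platr genes, 13 of 28 were the highest in all 4 groups, against 23.2% of all genes, and 4 were the lowest, with a median difference of 0.36. The median over all genes was 0.01. The 4 libraries of 1 experiment are not replicates of it, so these differences are a description with no test.

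The differences covered a wide range within each family. Platr16, Platr1 and Platr20 were higher in experiment 1 by 1.80, 1.58 and 1.48, and Platr7 by 0.84. Platr5 was lower by 2.13, with 0.251 to 0.318 CPM in experiment 1 and 0.69 to 1.98 CPM in the other libraries. Among the host genes, Snhg9, Snhg18 and Snhg12 were the lowest in experiment 1, with differences of -1.18, -1.01 and -0.89. Snhg11, Snhg14 and Snhg17 were higher in experiment 1, by 0.73, 0.23 and 0.21, and Snhg11 was the only one of them highest there in all 4 groups.

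Genes of related function were counted in the same fit, over both times, and none of the lists below held a gene that edgeR called. The shares over all genes tested, to be read beside each list, were as follows. Above 0 lay 49.3%, and at an unadjusted edgeR p below 0.05, 5.72% were higher and 7.85% lower. EdgeR called 0.0670%, DESeq2 4.68% of the genes with an adjusted p, and limma-voom 0.474%. Of 15 other long noncoding RNAs of embryonic stem cells, 6 lay above 0, with a median log2 fold change of -0.01. Lncenc1, which RefSeq also names Platr18, was at 0.19 ± 0.10 and higher in all 6 pairs (edgeR adjusted p = 0.41). Malat1, Neat1, Firre and Mirg, chosen after their values were seen, were lower in all 6 pairs. They were at -0.24 ± 0.07, -0.50 ± 0.19, -0.61 ± 0.20 and -0.27 ± 0.12 (edgeR adjusted p = 0.202, 0.287, 0.224 and 0.347). Of the 19410 genes tested, 1358 were higher and 1408 lower in all 6 pairs. At an unadjusted edgeR p below 0.05, 5 were lower and 0 higher, and DESeq2 called 1, Firre, and limma-voom 0.

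Of 16 naive and general pluripotency factors, 3 lay above 0, with a median of -0.14, and Tfcp2l1, a naive-state transcription factor, was at -0.39 ± 0.09 (edgeR adjusted p = 0.114). All 9 formative and primed factors lay above 0, with a median of 0.37, and the DNA methyltransferase gene Dnmt3a was at 0.58 ± 0.13 (edgeR adjusted p = 0.114). DESeq2 called 3 of the first list (Dppa3 higher, Tbx3 and Tfcp2l1 lower) and Dnmt3a of the second, and limma-voom 0 of both. At an unadjusted edgeR p below 0.05 there were 1 higher and 5 lower in the first and 3 higher and 0 lower in the second. These list members were named after their values were seen, and the part of cell state in the Platr values was not tested.

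The lists that bear on the host genes were close to 0 in the knockdown, and DESeq2 and limma-voom called 0 of them too. Of 15 snoRNP proteins and assembly factors, which bind and mature snoRNAs, 11 lay above 0, with a median of 0.06, and 2 were higher at an unadjusted p below 0.05. Of 14 nonsense-mediated decay factors, 5 lay above 0, with a median of -0.03, and 1 was higher at that p. Of 16 protein-coding snoRNA hosts and other terminal oligopyrimidine mRNAs, 10 lay above 0, with a median of 0.04, and 2 were lower at that p. With time in Gl2-KD, 13 of these 16 lay above 0 (52.3% of all genes), with a median of 0.20, next to the 0.12 of the Snhg and Gas5 genes. Of the 16, 10 were higher in every experiment (20.2% of all genes). At an unadjusted edgeR p below 0.05, 7 were higher and 0 lower (9.59% and 7.21% of all genes). Of the 16, edgeR called 0 (1.45% of all genes), DESeq2 4 (7.41% of the genes with an adjusted p) and limma-voom 1.

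Other overlaps limit single members. Snhg9 lies opposite to Rps2 over 14 of its 183 exonic bases. Rps2 had 1135 to 2954 CPM, lowest in experiment 1 in every group, against 0.181 to 1.28 CPM for Snhg9. Snhg3 shares 135 of its 986 exonic bases with Rcc1 on the same strand and 705 with Gm17300 on the other, Snhg17 shares 132 bases with Gm23925, and Snhg6 lies opposite to 127 bases of Mcmdc2, Platr30 to 162 of Gm26553 and Platr31 to 122 of Tigar. Mature snoRNAs are not polyadenylated, so the values of the host genes count polyadenylated host RNA and not mature snoRNAs. Annotated exons of all transcripts together cover 2402 of the 2402 bases spanned by Snhg12 and 3760 of the 4118 spanned by Gas5. Host RNA that keeps an intron may therefore be counted with the spliced form.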

How the data were processed

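The authors pseudo-aligned stranded paired-end polyA+ reads to the GENCODE M24 mouse transcriptome with Kallisto 0.46.1 and deposited the estimated counts, 1 per gene in each library and not normalized (build mm10 per the labels). Symbols and positions come from GENCODE M21 (GRCm38), which matched 42156 of 42450 identifiers. Counts were rounded, filtered with filterByExpr and scaled by TMM (edgeR 4.0.16, R 4.3.3). All 12 libraries were fitted with group and experiment (replicate number, as a block) by glmQLFit and glmQLFTest, Benjamini-Hochberg adjusted over 19410 genes, called below 0.05. The authors used the RNA processing day as covariate, which is not given in the labels. After removal of group means, libraries of the same number correlated (0.281 to 0.747 in 18 pairs, others -0.628 to 0.231 in 36). Per the study's methods, the replicates were wild-type cells frozen as separate batches at 3 passages of the line and then thawed. The block takes out differences in level between the experiments. The p-values therefore measure how far group differences vary from 1 experiment to another, pooled over all groups, for such batches of 1 line. The block does not pair the Srrm2-KD and Gl2-KD libraries of the same experiment and time. Changes of an experiment between the times thus stay in the spread of the knockdown comparisons. With a block per experiment and time, edgeR called 724 genes at 72 h and 1124 over both times. With the experiment alone as the block it called 0 and 13. CPM used TMM-scaled library sizes. Tests were tried on simulated data. Members, gene lists and alternatives were chosen with earlier results of these data known. Values in every library are given for Gas5, the 6 Platr and 6 Snhg genes with the highest mean CPM, members called, and the 2 Platr and 2 Snhg genes with the smallest p in each knockdown comparison. Other settings were DESeq2 1.42.0, RLE factors, limma-voom (limma 3.58.1), library totals, no filter, at least 10 counts in 3 libraries, legacy=FALSE, no block, a block per experiment and time, each time alone, and leaving out each library or experiment.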

Additional observations from a re-analysis of the deposited data

How the results depend on the processing

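No Snhg or Gas5 gene was called in any comparison under any setting tried. Counts of Platr genes called depended on the setting. At 72 h, where edgeR called 0, DESeq2 called 5 (3.26% of the genes with an adjusted p). Limma-voom called 1 (0.0206% of the genes it tested), the fit with no filter on low counts 1 (0.144%) and legacy=FALSE 1 (0.0258%). The fit of 72 h alone called 3 (1.78%). A replicate block per experiment and time point called 6 (3.73%), namely Platr11, Platr15, Platr27, Platr3, Platr4 and Platr7. Over both times, where edgeR called 1, the count was 5 for DESeq2 (4.68% of the genes with an adjusted p) and 2 for limma-voom (0.474%). It was 2 with no filter (0.422%), 2 with legacy=FALSE (0.407%), 7 with the replicate block per experiment and time point (5.79%) and 0 with no replicate block (0%). For 72 h against 24 h in Gl2-KD, DESeq2 called 2, Platr7 and Platr17, both lower. Leaving out libraries or experiments gave 0 to 2 Platr genes at 72 h, 0 to 3 over both times and 0 to 1 with time in Gl2-KD. Which property of a setting moves the count was not tested. The adjusted p of Platr7 over both times ranged from 6.17e-10 to 1. The direction of the values recomputed held for all but Snhg17 and Snhg12 over both times, whose log2 fold changes ranged from -0.00 to 0.11 and from -0.00 to 0.10 with libraries left out. Of 1203 such recomputed values, 1138 kept direction and side of the threshold. With 3 libraries per group, members near 0.1 CPM such as Platr19 and Platr31 have standard errors near 0.7 at a single time, so a doubling was not detectable for them. A doubling with a small standard error could also go uncalled. Platr7 was 2.08-fold higher at 72 h with a standard error of 0.14 and an unadjusted edgeR p of 1.15e-05. After adjustment over all genes tested, edgeR did not call it there (adjusted p = 0.112). DESeq2 and limma-voom called it at 72 h (adjusted p = 5.82e-08 and 0.0427).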
